A study of Mus musculus with 6 samples.

Results

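A set of 10 repressors and outputs of the circadian clock was followed in mouse brain RNA that had been extracted in 2 ways. They were the period genes Per1, Per2 and Per3, the cryptochromes Cry1 and Cry2, the repressor Ciart, the nuclear receptors Nr1d1 and Nr1d2, and the transcription factors Dbp and Tef. The 10 genes were taken by symbol from a table of 22584 genes, and all 10 were found and passed the filter on low counts that left 16325 genes for testing. None of the 10 differed between the methods at an adjusted p below 0.05 in edgeR, a threshold that 3.8% of all tested genes passed. Their fitted ratios of AllPrep to TRIzol ran from 0.815 for Per3 to 1.11 for Cry2.

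The circadian clock is a transcriptional loop that runs in most cells, including neurons and glia. The activators BMAL1 and CLOCK (or NPAS2) bind E-box sequences and switch on the Per, Cry, Ciart, Nr1d, Dbp and Tef genes. PER and CRY proteins then repress those same activators, NR1D1 and NR1D2 (REV-ERB alpha and beta) repress Bmal1, and DBP and TEF carry the rhythm to other genes through D-box sequences. The RNAs of the loop therefore peak at different times of day, Bmal1 nearly opposite to Dbp, Nr1d1 and the Per genes.

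The tissue was brain of wild-type mice, with no treatment named. In all, 3 libraries were made from RNA isolated with the AllPrep column kit, which recovers RNA, DNA and protein from one lysate, and 3 control libraries from RNA isolated with TRIzol, a phenol and guanidine reagent followed by alcohol precipitation. The sources used here do not give strain, age, sex, the part of the brain or the hour of collection. They also do not say that each library is a different animal, so the p-values reflect the spread among 6 libraries, and that spread may be technical. Levels are CPM, counts scaled to library sizes adjusted by TMM, and fold changes are AllPrep relative to TRIzol from edgeR's quasi-likelihood test with Benjamini-Hochberg adjustment over all 16325 genes.

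Total counts per library ran from 36395330 to 50937858. Over all tested genes 3.8% passed, 412 higher and 209 lower in AllPrep. That split was 343 and 305 with library size alone and 150 and 251 with length and GC trends removed, and between 2 and 205 genes passed when 1 library was left out. Markers of neurons, astrocytes, oligodendrocytes, microglia and endothelium were present in every library, and of 4 cerebellar genes Gabra6 and Pcp2 had at most 2 and 12 counts, Cbln3 20 to 28 and Cbln1 283 to 745. All 6 choroid plexus markers were higher in AllPrep, with a summed level of 623 to 1248 CPM against 17.3 to 25.6 CPM in TRIzol. The summed level of 4 striatal markers ran from 36.7 CPM in TRIzol 3 to 340.4 CPM in AllPrep 2. The part of these markers in the clock gene values was not tested. In bulk tissue, fewer cells of a type and less RNA per cell cannot be told apart.

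Among the period genes, which encode the PER proteins of the repressing complex, Per1 and Per2 had nearly the same mean level after both methods and Per3 had the lowest ratio of the 10 genes. Per1 (ENSMUSG00000020893), the period gene that also responds quickly to neuronal activity and hormones, had 143, 122 and 137 CPM in TRIzol 1 to 3 and 117, 144 and 138 CPM in AllPrep 1 to 3. The highest and the lowest Per1 values were both AllPrep libraries. The means were 134 ± 10.7 CPM in TRIzol and 133 ± 14.1 CPM in AllPrep (SD, n = 3 each), a log2 fold change of -0.01 (standard error, SE, 0.10, adjusted p = 0.96 in edgeR). The 95% interval of the Per1 ratio ran from 0.843 to 1.17. Per2 (ENSMUSG00000055866) had 41.0, 37.2 and 43.5 CPM in TRIzol and 37.5, 37.0 and 42.6 CPM in AllPrep. The ranges of the methods nearly coincided for Per2, with a log2 fold change of -0.05 (SE 0.09, adjusted p = 0.74 in edgeR).

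Per3 (ENSMUSG00000028957), a period gene that is not needed for the core rhythm, had 46.0, 48.7 and 49.3 CPM in TRIzol and 40.8, 40.1 and 36.5 CPM in AllPrep. All 3 AllPrep libraries lay under all 3 TRIzol libraries. The means were 48.0 ± 1.78 CPM and 39.1 ± 2.29 CPM (SD, n = 3 each), a log2 fold change of -0.29 (SE 0.07, adjusted p = 0.066 in edgeR). This missed the threshold in edgeR, but passed in DESeq2 (-0.29, adjusted p = 0.022) and in edgeR with length and GC trends removed (-0.45, adjusted p = 0.035). Over the 15 alternatives the adjusted p of Per3 ran from 0.022 to 0.18, with a negative value in each. The Per3 gene lies within the span of Camta1 on the same strand, with no shared exon bases in the annotation.

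The sequence before the annotated start was set beside these values for the genes with the lowest and second-lowest ratios, Per3 and Ciart, and for Cry1, which had a ratio slightly above 1. Each line gives the 250 bases upstream of the start in RefSeq (GRCm38.p6), read 5′ to 3′ on the strand of the gene, which is the minus strand for all 3. Capitals mark the E-box CACGTG and the D-box letters TTATGTAA. The stretches are chr4:151044666-151044915 for Per3, chr3:95882229-95882478 for Ciart and chr10:85185055-85185304 for Cry1.
Per3: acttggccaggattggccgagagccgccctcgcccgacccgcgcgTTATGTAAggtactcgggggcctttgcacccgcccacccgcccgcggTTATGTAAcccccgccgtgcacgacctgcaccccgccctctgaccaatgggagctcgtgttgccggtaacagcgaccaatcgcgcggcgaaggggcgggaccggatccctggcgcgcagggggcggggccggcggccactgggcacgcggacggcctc
Ciart: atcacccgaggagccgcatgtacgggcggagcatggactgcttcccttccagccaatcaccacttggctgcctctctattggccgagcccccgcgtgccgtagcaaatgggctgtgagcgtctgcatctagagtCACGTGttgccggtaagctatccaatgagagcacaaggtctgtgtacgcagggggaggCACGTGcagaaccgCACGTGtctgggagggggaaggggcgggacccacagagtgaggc
Cry1: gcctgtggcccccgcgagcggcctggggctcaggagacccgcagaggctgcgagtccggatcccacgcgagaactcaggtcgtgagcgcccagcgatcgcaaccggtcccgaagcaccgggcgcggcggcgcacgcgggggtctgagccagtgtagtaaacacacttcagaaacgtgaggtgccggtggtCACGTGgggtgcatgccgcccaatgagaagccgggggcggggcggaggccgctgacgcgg
Per3 held 2 D-box matches, with first bases 205 and 158 before the start, and no CACGTG. Ciart held 3 E-box matches, 116, 58 and 44 bases before the start, and Cry1 held 1, at 60. Promoter windows of 300 bases, 250 before and 50 after the start, were found for 9 of the 10 genes, all but Per2. Both strands were searched, and CACGTG stood in at least 1 window of Per1, Cry1, Ciart and Tef, against 7.15% of all 32851 windows. TTATGTAA stood in Per3 alone, against 0.938% of all windows. The related CACGTT stood in windows of Cry1, Cry2 and Nr1d1 (4.68% of all windows), and AGGTCA, the core of the element that ROR and REV-ERB proteins bind, in Per1 and Nr1d2 (16.3%). The log2 fold changes of the 4 genes with CACGTG were -0.01, 0.08, -0.28 and 0.09 in the order given. Genes with these letters thus had values on both sides of 0, and a match is a description of the letters, not of binding.

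The cryptochromes, which form the repressing complex with PER proteins, had slightly higher means in AllPrep, and neither passed. Cry1 (ENSMUSG00000020038) had 23.9, 17.3 and 20.6 CPM in TRIzol and 23.2, 22.6 and 19.4 CPM in AllPrep. The AllPrep values of Cry1 lay inside the TRIzol range, and the log2 fold change was 0.08 (SE 0.13, adjusted p = 0.75 in edgeR). Cry2 (ENSMUSG00000068742) had 119.5, 129 and 149 CPM in TRIzol and 142, 149.9 and 151 CPM in AllPrep. TRIzol 3 lay above AllPrep 1, so the methods overlapped in Cry2. Its log2 fold change of 0.15 (SE 0.09, adjusted p = 0.34 in edgeR) was the highest of the 10 genes.

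Ciart (ENSMUSG00000038550), also called Chrono, encodes a repressor that acts on the BMAL1 and CLOCK complex. It had 19.1, 16.0 and 18.4 CPM in TRIzol and 15.6, 16.2 and 12.3 CPM in AllPrep. AllPrep 2 and TRIzol 2 were nearly equal, and AllPrep 3 stood lowest. The means were 17.9 ± 1.63 and 14.7 ± 2.11 CPM (SD, n = 3 each), a log2 fold change of -0.28 (SE 0.13, adjusted p = 0.22 in edgeR). Without AllPrep 3 the log2 fold change of Ciart was -0.17. Ciart was the least sequenced of the 10 genes, with at least 609 counts per library.

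**Figure D1:**
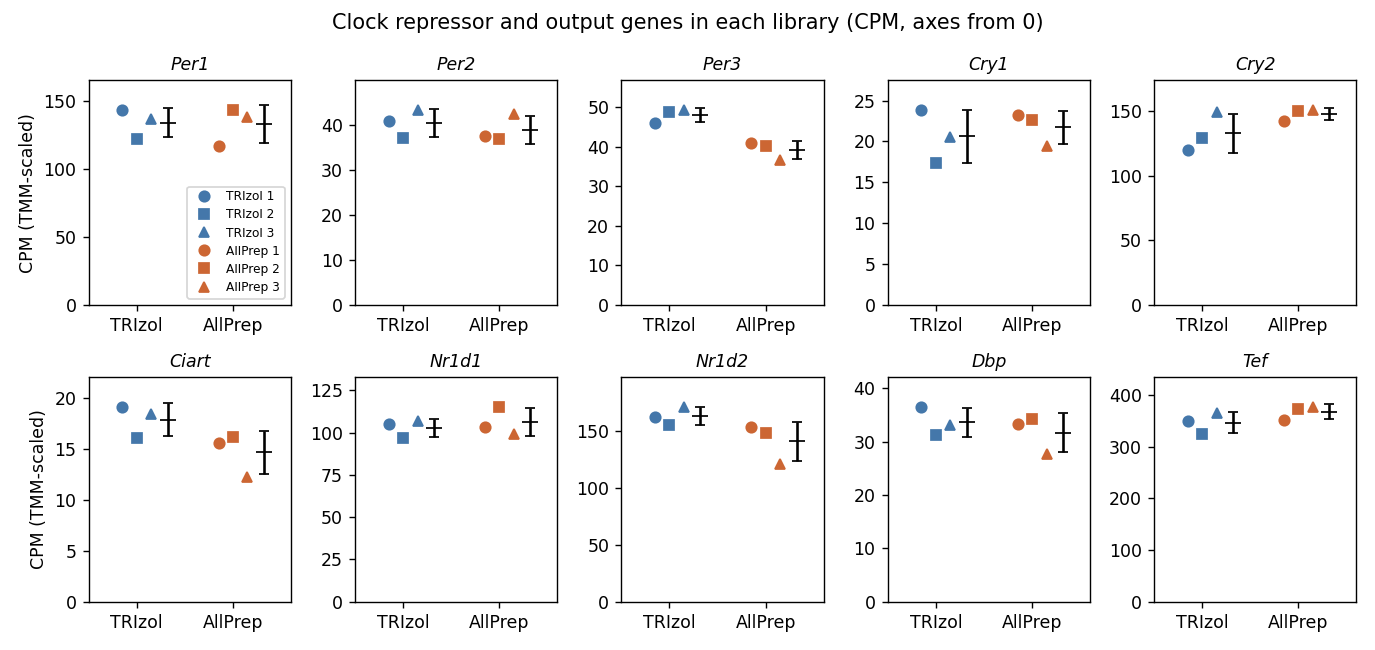
Level of each of the 10 clock genes in CPM (vertical axes from 0) in every TRIzol (blue) and AllPrep (orange) library, with marker shapes for replicates 1 to 3 and black bars for the mean ± SD of 3 libraries. Per3 and Nr1d2 are the genes whose methods do not overlap, with Per3 at 46.0 to 49.3 CPM in TRIzol and 36.5 to 40.8 CPM in AllPrep. Of all tested genes, 33.1% do not overlap in either direction, and 17.1% do so with AllPrep lower.

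The nuclear receptors Nr1d1 and Nr1d2, which repress Bmal1 and link the clock to metabolism, differed from each other in how the methods lay. Nr1d1 (ENSMUSG00000020889) had 105, 96.9 and 107 CPM in TRIzol and 103, 115 and 99.4 CPM in AllPrep. The methods overlapped throughout for Nr1d1, with a log2 fold change of 0.04 (SE 0.08, adjusted p = 0.77 in edgeR) and a 95% interval of the ratio from 0.902 to 1.18. Nr1d2 (ENSMUSG00000021775) had 162, 155 and 172 CPM in TRIzol and 154, 148 and 122 CPM in AllPrep. All AllPrep values of Nr1d2 lay under the TRIzol values, by a narrow gap between AllPrep 1 and TRIzol 2. Its log2 fold change was -0.21 (SE 0.10, adjusted p = 0.24 in edgeR), and -0.11 without AllPrep 3. The difference between the changes of Nr1d1 and Nr1d2 was not tested. In the annotation Nr1d1 shares 8.55% of its exon bases with Thra on the opposite strand. Whether strand was used in counting is not given, so reads there cannot be told apart, and Thra itself had 405 to 449 CPM in TRIzol and 472 to 667 CPM in AllPrep (adjusted p = 0.17 in edgeR).

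Dbp and Tef encode related transcription factors of the PAR bZIP family, which act on D-box sequences of output genes. Dbp (ENSMUSG00000059824), an output with one of the stronger daily rhythms in many tissues, had 36.6, 31.2 and 33.1 CPM in TRIzol and 33.3, 34.3 and 27.6 CPM in AllPrep. AllPrep 3 was the lowest library and the other AllPrep values lay within the TRIzol range. The log2 fold change of Dbp was -0.08 (SE 0.11, adjusted p = 0.66 in edgeR), and 0.01 without AllPrep 3. Dbp shares 18.0% of its exon bases with Sphk2 on the opposite strand, which had 20.3 to 25.1 CPM over the 6 libraries. Tef (ENSMUSG00000022389), a relative of Dbp that is expressed in many tissues, had 351, 324 and 365 CPM in TRIzol and 352, 374 and 378 CPM in AllPrep. Its log2 fold change was 0.09 (SE 0.08, adjusted p = 0.52 in edgeR), with overlapping methods.

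Over the 10 genes, edgeR called 0 at an adjusted p below 0.05, against 3.8% of all tested genes, 2.52% higher and 1.28% lower in AllPrep. DESeq2, which called 13.4% of all genes, called 1, Per3, and limma-voom, which called 3.94%, called 0. At an unadjusted p below 0.05 in edgeR, 1 of the 10 passed, again Per3, against 25.8% of all genes. The methods did not overlap in 2 of the 10, Per3 and Nr1d2, both lower in AllPrep, against 33.1% of all genes in either direction and 17.1% in that direction. The median log2 fold change of the 10 was -0.03 (range -0.29 to 0.15), against -0.01 over all tested genes, and 6 values were negative and 4 positive. Leaving out 1 library gave medians of the 10 from -0.10 to 0.01. The median size of the change, sign aside, was 0.08 for the 10 genes and 0.19 for all tested genes, or 0.16 for the 10093 tested genes with a mean of at least 10 CPM. Of the 10 genes, 4 kept the sign of their change in all 15 alternatives: Per3, Ciart, Nr1d2 and Cry2. These 4 also had the largest changes of the 10, sign aside. The alternatives reuse the same libraries, and the share of all genes that kept their sign was not counted.

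The spread over all 6 libraries was near that of genes of like level. The highest library was 1.17 times (Tef) to 1.56 times (Ciart) the lowest, with a median of 1.29 times, against 1.44 times over all tested genes and 1.32 times over those with a mean of at least 10 CPM. AllPrep 3 was the lowest of 6 for Per3, Ciart, Nr1d2 and Dbp, and TRIzol 2 was the lowest TRIzol library for 8 of the 10 genes. The share of all genes with either trait was not counted. AllPrep 3 also had the lowest level of all 3 oligodendrocyte markers, with a summed level of 2309 CPM against 3711 to 5010 CPM in the others. The part of that marker level in the 4 clock gene values was not tested.

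Per kilobase of the longest annotated transcript, Tef had the highest level of the 10, with 81.2 ± 4.48 CPM per kilobase (SD, n = 6 libraries). Nr1d1, Cry2, Nr1d2 and Per1 followed with 38.4 ± 2.38, 35.3 ± 3.28, 32.6 ± 3.66 and 28.6 ± 2.40 CPM per kilobase, and the ranges of neighbours in this group overlapped. Dbp stood alone at 17.8 ± 1.65 CPM per kilobase. The lowest were Ciart at 8.39 ± 1.25, Per3 at 7.26 ± 0.864, Cry1 at 6.99 ± 0.832 and Per2 at 6.82 ± 0.501 CPM per kilobase, again with overlapping neighbours. The choice of transcript affects these levels and the fit with length and GC trends removed, but not the main comparison between methods.

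None of the activators and genes of opposite phase passed either. For 7 genes of this kind, edgeR called 0 at an adjusted p below 0.05, against 3.8% of all tested genes. At an unadjusted p below 0.05 in edgeR there were 0, against 25.8% of all genes. DESeq2 and limma-voom also called 0, against 13.4% and 3.94% of all genes. The median log2 fold change of the 7 was 0.08, or -0.08 with length and GC trends removed. Bmal1 (ENSMUSG00000055116), the activator without which the clock stops, had 30.3, 33.0 and 35.8 CPM in TRIzol and 28.1, 33.7 and 29.6 CPM in AllPrep. The methods overlapped, with a log2 fold change of -0.12 (SE 0.10, adjusted p = 0.50 in edgeR). Clock, the partner of BMAL1, had 104, 123 and 117 CPM in TRIzol and 130.0, 130.0 and 129 CPM in AllPrep. The AllPrep values of Clock were nearly equal and lay above all TRIzol values, which 16.0% of all genes did (log2 fold change 0.18, adjusted p = 0.21 in edgeR), but with length and GC trends removed the value was -0.08. Npas2, which can stand in for CLOCK, had a log2 fold change of 0.22 with overlapping methods. Nfil3, a repressor at D-boxes, had 0.08, and the activating receptor Rorb had -0.18.

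Rora, a nuclear receptor that activates Bmal1, was the exception in its spread. It had 72.1, 85.6 and 261 CPM in TRIzol and 115, 145 and 92.8 CPM in AllPrep, so TRIzol 3 stood far above all others. The log2 fold change of Rora was -0.25 (SE 0.46, adjusted p = 0.77 in edgeR) and turned to 0.58 without TRIzol 3. In a list of 6 thalamic markers, added after these values were seen, all 6 were highest in TRIzol 3. Rgs16, which is also on a list of suprachiasmatic and pineal genes given below, is 1 of the 6. The summed level of the 6 was 687 CPM in TRIzol 3, 86.6 and 103 CPM in the other TRIzol libraries and 119.5 to 253 CPM in AllPrep. The part of this marker level in the Rora value was not tested.

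Of the other factors acting at E-boxes and D-boxes, 0 of 3 passed in edgeR, with 0 at an unadjusted p below 0.05 and 0 in DESeq2 and limma-voom. The shares of all genes were 3.8% in edgeR, 25.8% at an unadjusted p below 0.05, 13.4% in DESeq2 and 3.94% in limma-voom. Hlf, the third PAR bZIP factor, had 231, 161 and 294 CPM in TRIzol and 208, 246 and 167 CPM in AllPrep, which overlapped. Bhlhe40 and Bhlhe41, repressors that compete at E-boxes, had log2 fold changes of 0.00 and -0.21.

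**Figure D2:**
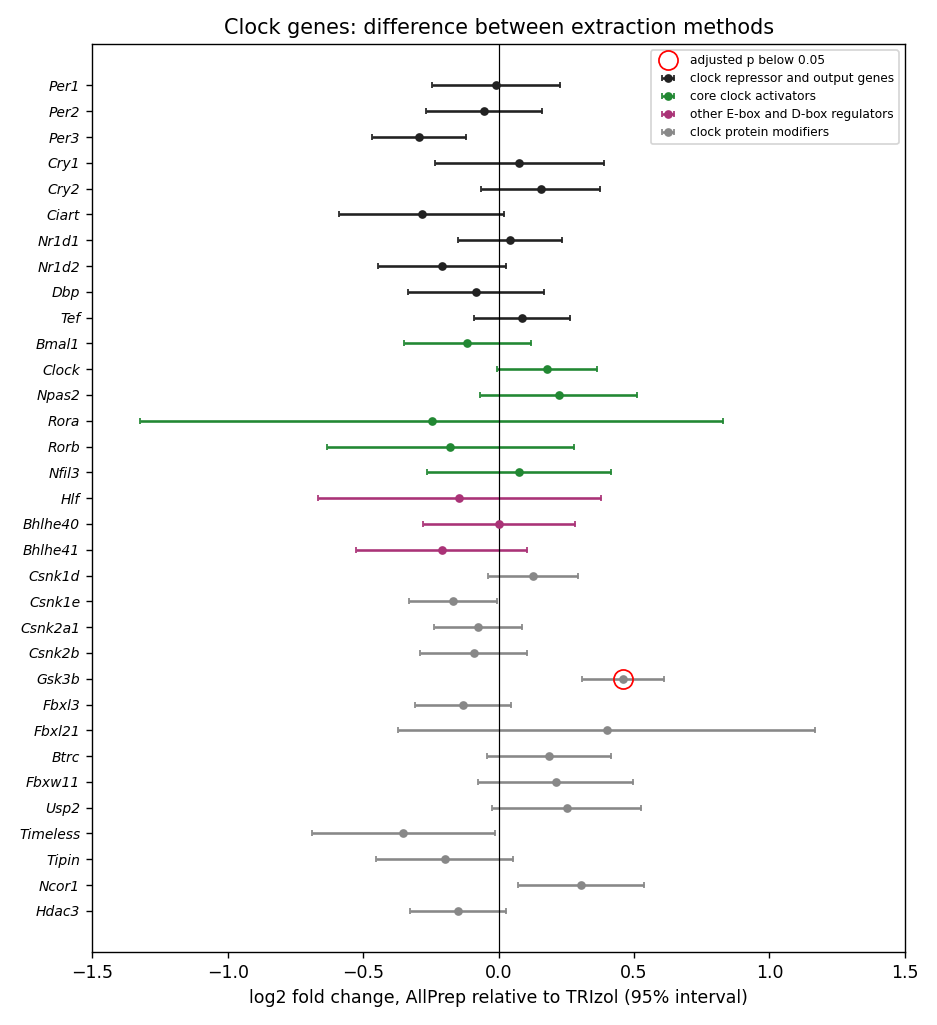
Log2 fold change of AllPrep relative to TRIzol (horizontal axis) with its 95% interval for the 10 clock repressor and output genes (black), 6 of the 7 activators and genes of opposite phase (green), 3 other E-box and D-box regulators (purple) and 14 enzymes and partners of clock proteins (grey), with 3 libraries per method. Gsk3b, ringed in red, is the gene that passed at an adjusted p below 0.05, and Per3 at -0.29 has an interval that ends at -0.12.

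Ratios of clock RNAs to Bmal1 within a library compare RNAs of nearly opposite daily phase and do not depend on scaling. The log2 ratio of Dbp to Bmal1 was 0.27, -0.08 and -0.12 in TRIzol and 0.24, 0.02 and -0.10 in AllPrep. The means of the methods differed by 0.03, while the libraries within each method spread over more than 0.3 on the log2 scale. The ratio of Nr1d1 to Bmal1 ran from 1.56 to 1.79 in TRIzol and from 1.75 to 1.88 in AllPrep, and that of Per1 from 1.89 to 2.24 and from 2.06 to 2.22. The ratio of Per2 ran from 0.17 to 0.43 in TRIzol and from 0.13 to 0.52 in AllPrep, and that of Ciart from -1.04 to -0.66 and from -1.27 to -0.85. All 5 ratios overlapped between the methods. The mean difference, AllPrep minus TRIzol, ran from -0.17 for Ciart to 0.16 for Nr1d1, and was negative for 1 of the 5. All ratios to Bmal1 share its value, so their differences are not independent of each other. Bmal1 itself had a log2 fold change of -0.12. Per1, Per2 and Dbp had -0.01, -0.05 and -0.08, and their ratios to Bmal1 had positive differences. Nr1d1 had 0.04 and Ciart -0.28. Leaving out 1 library moved the difference for Dbp between -0.06 and 0.15 and that for Per2 between -0.02 and 0.17, so neither kept its sign. The differences for Nr1d1 and Per1 stayed positive whichever library was left out. The difference for Ciart was -0.07 without AllPrep 3 and -0.06 without TRIzol 1.

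Ratios to Bmal1 were also computed for the other 5 genes, a choice made after these values were seen. Of these genes, only Per3 is among those named above as nearly opposite in phase to Bmal1. The ratios of the others, Cry1 and Cry2 included, are therefore not given as a measure of phase. Among all 10, Cry2 to Bmal1 was the ratio whose methods did not overlap, at 1.97 to 2.06 in TRIzol and 2.15 to 2.35 in AllPrep, against 21.5% of all genes whose ratio to Bmal1 did not overlap. The mean difference was 0.28 for Cry2, 0.20 for Cry1 and Tef, -0.10 for Nr1d2 and -0.18 for Per3. Over the 6 libraries the 10 ratios ranged by 0.32 (Nr1d1) to 0.65 (Cry1) on the log2 scale. No hour of collection is given in the sources used here, so a difference in collection time between the methods was not tested.

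**Figure D3:**
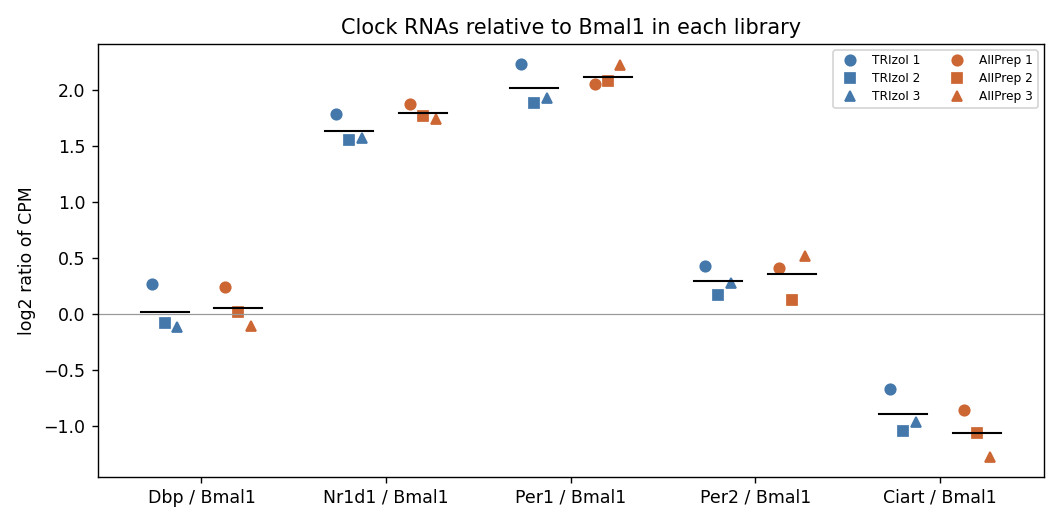
Log2 ratio of the CPM of Dbp, Nr1d1, Per1, Per2 and Ciart to that of Bmal1 (vertical axis) in each TRIzol (blue) and AllPrep (orange) library, with marker shapes for replicates 1 to 3 and black lines for the mean of 3 libraries. For each of the 5 ratios the methods overlap, and the means differ by at most 0.17.

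Of 14 enzymes and partners that act on clock proteins, 1 rose in AllPrep and 13 did not pass, against 3.8% of all tested genes that passed. The median log2 fold change of the 14 was 0.03. At an unadjusted p below 0.05 there were 4 of 14 (25.8% of all genes), and in 8 of 14 the methods did not overlap (33.1% of all genes). Gsk3b, a kinase with many substrates besides clock proteins, rose from 206 ± 6.48 to 283 ± 2.95 CPM (SD, n = 3 each), a log2 fold change of 0.46 with an SE of 0.06 and an adjusted p of 0.025 in edgeR. Its values were 212, 199 and 206 CPM in TRIzol and 284, 285 and 279 CPM in AllPrep, without overlap. The call was lost when any 1 library other than TRIzol 1 was left out (adjusted p from 0.053 to 0.086), while the log2 fold change in those fits was 0.43 to 0.47. With length and GC trends removed the value was 0.21 (adjusted p = 0.16). Ncor1, a corepressor that REV-ERB proteins recruit, was the other most abundant gene of the list, with a log2 fold change of 0.30 (adjusted p = 0.11 in edgeR, 0.0498 in DESeq2). The kinases Csnk1d and Csnk1e, which mark PER proteins for degradation, had log2 fold changes of 0.13 and -0.17 and did not pass, a pair named after its values were seen.

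Genes of 3 inputs that can move Per1 and Per2 apart from the loop were set beside them, and their counts are to be read against the shares of all genes, 3.8% in edgeR, 25.8% at an unadjusted p below 0.05, 13.4% in DESeq2 and 3.94% in limma-voom. Of 10 glucocorticoid-responsive genes edgeR called 0 (2 at an unadjusted p below 0.05, Fkbp5 and Tsc22d3), DESeq2 1 and limma-voom 0, with a median log2 fold change of -0.01. The most abundant, Klf9 and Sgk1, had -0.05 and -0.28. Fkbp5, named after its values were seen, had 28.5 to 30.1 CPM in TRIzol and 35.5 to 45.4 CPM in AllPrep (log2 fold change 0.43, adjusted p = 0.063 in edgeR), and was the gene that DESeq2 called. Tsc22d3 went the other way, with 93.3 to 109 CPM in TRIzol and 78.7 to 90.4 CPM in AllPrep (log2 fold change -0.28, adjusted p = 0.11 in edgeR). Of 9 temperature-responsive genes edgeR called 0 (3 at an unadjusted p below 0.05, Rbm3, Hspa1b and Hspa8), DESeq2 2 and limma-voom 0, with a median of 0.03. The abundant chaperone genes Hspa8 and Hsp90aa1 had -0.23 and -0.16. Rbm3, a cold-induced RNA-binding protein named after its values were seen, had 63.6 to 79.8 CPM in TRIzol and 52.1 to 55.0 CPM in AllPrep (adjusted p = 0.083 in edgeR). DESeq2 called Rbm3, and also Hspa1b, which went the other way with a log2 fold change of 0.62 (adjusted p = 0.098 in edgeR).

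Of 13 activity-induced genes edgeR called 0 (0 at an unadjusted p below 0.05), as did DESeq2 and limma-voom, and the median log2 fold change was 0.10. Arc and Egr1, the most abundant, had -0.31 and 0.04. These genes varied between libraries within each method. Egr1 had 373, 259.9 and 292 CPM in TRIzol and 278, 384 and 292 CPM in AllPrep, so TRIzol 2 and AllPrep 1 were the lowest library of their method. The same held for 12 of the 13 genes, against 11.5% of all tested genes, a pattern noticed after the values were seen. Among the 10 clock genes it held for 2, Per1 and Tef. TRIzol 2 was the lowest TRIzol library for 8 of the 10, Dbp and Nr1d1 included, and AllPrep 1 the lowest AllPrep library for 3. For the 13 activity-induced genes these counts were 12 and 12. Dbp and Nr1d1 had their lowest AllPrep value in AllPrep 3. The share of all genes for either library alone was not counted.

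**Figure D4:**
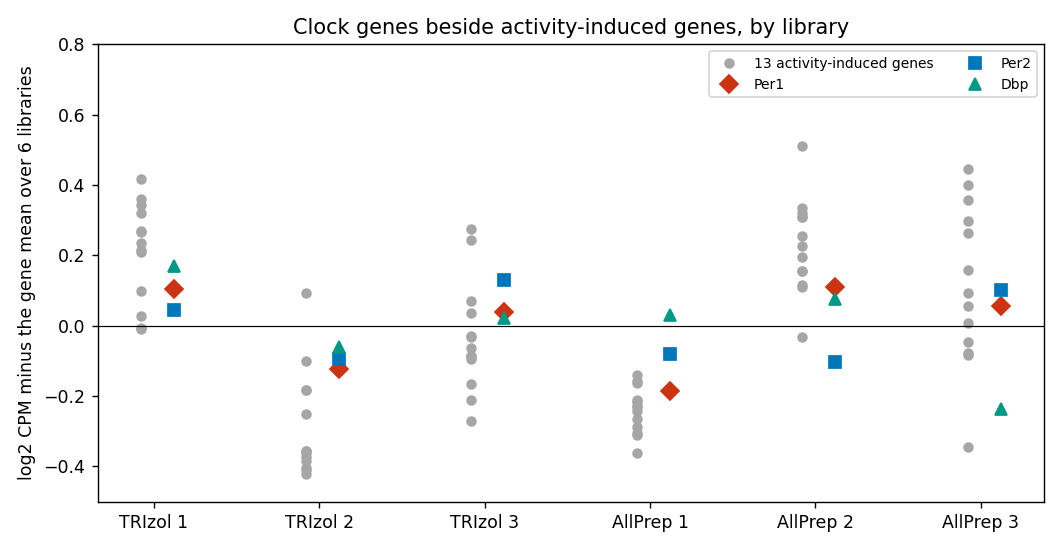
Log2 CPM minus the gene's mean over 6 libraries (vertical axis) in each library for 13 activity-induced genes (grey circles), Per1 (red diamonds), Per2 (blue squares) and Dbp (green triangles). TRIzol 2 and AllPrep 1 are the lowest of their method for 12 of the 13 activity-induced genes and for Per1. Dbp is lowest in TRIzol 2 within TRIzol but in AllPrep 3 within AllPrep.

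Genes of the suprachiasmatic nucleus, the tissue of the central clock, and of the pineal gland were listed together, and some had few counts. Of these 15 genes, 14 were in the table and 11 were tested. Nms, a peptide gene of the suprachiasmatic nucleus, had at most 6 counts in a library, and Six6, a transcription factor needed for its development, at most 14. Asmt, a pineal gene for the last enzyme of melatonin synthesis, had at most 6. None of the 11 passed in edgeR, with 4 at an unadjusted p below 0.05 (Avp, Prok2, Prokr2 and Bsx, all higher in AllPrep), 3 in DESeq2 (the same without Bsx) and 0 in limma-voom. Of all genes, 25.8% passed at an unadjusted p below 0.05 and 13.4% in DESeq2. The median log2 fold change of the 11 was -0.16. The median of the list was 0.63 without TRIzol 3, 0.09 without TRIzol 1, 0.02 without AllPrep 2 and -0.40 with counts halved. The filter on low counts was reapplied in each of these fits, so their medians may not rest on the same 11 genes. The most abundant were Vip, a peptide that cortical interneurons also make, with a log2 fold change of -0.16, and Rgs16. Rgs16, also 1 of the 6 thalamic markers, had -0.62, its highest level in TRIzol 3 and 0.38 without that library. Avp, the vasopressin gene, which other hypothalamic neurons also express, had 0.511 to 1.81 CPM in TRIzol and 2.16 to 10.9 CPM in AllPrep (adjusted p = 0.077 in edgeR). Of the 5 tested hypothalamic markers, 4 had a positive log2 fold change and 1, Pomc, a negative value. In edgeR 2 passed, Sim1 and Hdc, both higher in AllPrep, which 2.52% of all tested genes did. The 5 summed to 10.9 to 33.1 CPM in AllPrep and 3.46 to 3.94 CPM in TRIzol. Pmch alone had 24.4 CPM in AllPrep 2, the library with the highest sum. The part of these markers in the Avp value was not tested.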

How the data were processed

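RNA of 6 mouse brain libraries was amplified by T7 in vitro transcription and sequenced as paired reads of 150 bases, per the labels' protocols. The table the authors deposited holds an unnormalized count for each gene and library. The submitters' processing notes name build GRCm39 and, with no roles or settings, STAR 2.7.9a, featureCounts, cutadapt, FastQC 0.11.9 and limma 3.60.6. Whether strand was used in counting is not given there. The 22692 rows covered 22584 Ensembl IDs, and 108 repeated rows with identical counts were removed. Of counts from 1 to 20, 64.2% to 70.9% were even, and halved counts were therefore tried as an alternative.

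Libraries were grouped by title, and columns were matched to samples by name. The chi-square per degree of freedom between libraries of a method was at least 14.3, so all were kept as replicates. The test was that of edgeR 4.0.16 (R 4.3.3, filterByExpr, TMM, quasi-likelihood F-test, two-sided, adjusted p below 0.05, no block). The SE is the size of the log2 fold change divided by the square root of F, and 95% intervals use the moderated degrees of freedom. DESeq2 1.42.0, limma-voom (limma 3.58.1), other scalings and filters, a replicate block, each library left out, and length and GC trends removed with mgcv 1.9.3 were alternatives. Tested on simulated data for AllPrep against TRIzol (16173 genes), the step recovered 36.4% of 1.5-fold, 67.6% of 2-fold and 95.9% of 4-fold changes, and 8.72% of its calls were unchanged genes.

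Length, GC content and overlapping genes came from GENCODE vM21 and promoter windows from RefSeq, both on GRCm38, not the build of the files. Length and GC content were found for 99.4% of tested genes. The genes described and all lists were chosen with earlier results of these data known. The naming rule took the 10 clock genes, the 7 activators and 3 other regulators, in each other list the called genes and the 2 most abundant, and the 5 genes closest to Dbp. One of the 7 activators is counted in its list but not reported here. Other names are given where a count or a spread called for them.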

Additional observations from a re-analysis of the deposited data

How the results depend on the processing

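The count of all genes called, 621, became 2095 with DESeq2, 401 with length and GC trends removed and 2 to 205 with 1 library left out. Of the 10 clock genes, DESeq2 called 1 and the fit with length and GC trends removed called 1, Per3 both times, and the other 13 alternatives called 0, so 2 calls were made in 150 fits. Of the 14 enzymes and partners of clock proteins, where 1 passed, DESeq2 called 2, the fit with length and GC trends removed 0, and the fits with 1 library left out 0 to 1. DESeq2 also called 1 glucocorticoid-responsive gene, 2 temperature-responsive genes and 3 of the suprachiasmatic and pineal genes, where edgeR called 0. With the replicate number as a block, 236 of all genes, 0 of the 10 clock genes and 0 of the enzymes and partners passed. The numbers share no stated source, and same-numbered libraries deviated together with correlations of -0.05, 0.01 and 0.16. Replicate 3 correlated best with its own number in both methods, and replicates 1 and 2 did not. The cause of these differences was not tested, except that fits with a library left out rest on fewer samples. With 3 libraries per method, the simulation over 16173 genes recovered 1.5-fold changes least often, and the fitted changes of the 10 genes were smaller than that. Recovery at the level of the 10 genes was not computed separately.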

Other observations

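The genes whose profile over the 6 libraries lay closest to that of Dbp were not clock genes. Likeness was the root mean square distance between centred log2 CPM values, over 14243 genes with a mean of at least 1 CPM. The 5 closest were Mrpl33, a mitochondrial ribosomal protein gene, Peds1, Dixdc1, Tma16 and Slc44a1, a choline transporter gene, at distances of 0.02 to 0.03, and the same 5 were found with a prior count of 0.5 and with library size alone. The median distance over all genes was 0.20. Among the other clock genes Nr1d2, Nr1d1, Ciart and Cry1 were at 0.10, 0.10, 0.11 and 0.11, within the closest 9.25% of genes, and Cry2 was the farthest at 0.22. Like Dbp, the 5 closest genes were lowest in AllPrep 3 and highest in TRIzol 1, with the highest library 1.27 to 1.37 times the lowest. Genes that vary little between libraries are also close to one another. The hour of collection is not given, so a short distance says nothing of a shared rhythm.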
